A study of Mus musculus with 6 samples.

Results

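The RGS proteins (regulators of G protein signalling) were followed in microglia, the resident macrophages of the brain, through 7 genes taken by symbol from the deposited count table: Rgs1, Rgs2, Rgs3, Rgs10, Rgs14, Rgs18 and Rgs19. These are 7 of the 48587 gene entries in that table, and all 7 were found in it. FACS-sorted microglia of C57BL/6 mice at postnatal day 42 were profiled by polyA RNA-seq, with 3 wildtype samples and 3 samples labelled Lyl1 KO. Lyl1 is a transcription factor of the basic helix-loop-helix class, known from blood-forming cells. The labels do not say which allele was used, whether each sample came from its own mouse, or which markers set the sorting gate. The p-values therefore refer to sample-to-sample spread, part of which may be technical.

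A receptor coupled to a G protein loads the G alpha subunit with GTP, which releases the beta-gamma pair and lets both parts signal to adenylyl cyclase, phospholipase C and other effectors. RGS proteins bind the active alpha subunit through their RGS domain and speed its hydrolysis of GTP, which ends the signal. Microglia depend on such receptors for nucleotide sensing through P2ry12 and for chemokine sensing through Cx3cr1, and Rgs10 in particular is known as an RGS protein abundant in microglia that restrains inflammatory gene expression.

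The libraries held 12753945 to 27378614 reads assigned to genes, and 12827 to 15652 genes were detected in each. More genes, from 14923 to 15652, were detected in wild-type sample 3 and in knockout samples 2 and 3 than in the rest, with 12827 to 13085. Lyl1 itself had 683, 1399 and 839 reads in the wild-type group and 205, 237 and 410 in knockout, so it was lower in every knockout sample but not absent. The microglia markers P2ry12, Cx3cr1, Tmem119, Csf1r, Sall1, Siglech and Fcrls were present in every library, with Csf1r at 10591 to 12009.6 CPM (read counts scaled to a common library total, with TMM factors), Tmem119 at 4530 to 5322 CPM and Sall1, the lowest of them, at 368 to 688 CPM. Xist was read 16, 10 and 8 times in wild-type samples 1 to 3 against 7925, 4 and 11860 times in knockout samples 1 to 3, so knockout sample 2 is the only knockout library with a wild-type-like Xist level. Markers of neurons, monocytes and border-associated macrophages summed to at most 7.62, 6.91 and 95.8 CPM in any library. Neutrophil markers summed to 446 to 872 CPM, nearly all of it Csf3r, astrocyte markers to 170 to 410 CPM, nearly all of it Slc1a3, and lymphocyte markers to 55.9 to 132 CPM, nearly all of it Cd79b, while S100a8, Ly6g, Gfap, Aldoc and Cd3e had no reads. Other members of these lists had low counts. S100a9 reached 82 reads in wild-type sample 2, Cd79a 29 in wild-type sample 3, Slc1a2 17 in knockout sample 2 and Aqp4 16 in wild-type sample 1. Oligodendrocyte markers summed to 47.4 to 379 CPM, led by Mag, Cnp and Mbp, and endothelial and pericyte markers to 27.2 to 180 CPM, led by Pecam1, both highest in wild-type sample 1. The erythroid list differed between libraries and is given beside Rgs1.

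The members comprised abundant genes, genes scattered over libraries and 1 gene with almost no reads. Rgs2 and Rgs10 ranked 55 and 70 of the 10394 tested genes by mean CPM, which is not corrected for length, Rgs19 ranked 354 and Rgs1 ranked 482. Rgs14 and Rgs3 ranked 7397 and 8643, and Rgs18 did not pass the filter on low counts. Thus 6 of the 7 members were tested.

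Promoter sequences of the members with RefSeq entries (GRCm38.p6) are shown for the 2 most abundant genes. The genotypes did not overlap for Rgs10, as for 11.2% of all tested genes, and overlapped for Rgs2. This pair was chosen after the values were seen, and a link between motifs and genotype was not tested. RefSeq entries were matched for 4 members, Rgs2, Rgs3, Rgs10 and Rgs19, with 7 start sites in all. Each sequence below is the stretch of 250 bases before a RefSeq start, 5′ to 3′ on the strand of the gene. Matches to the GC box GGGCGG on either strand are in capitals. The GENCODE M21 span of Rgs10 begins farther upstream, at 128418758 on the minus strand, so the Rgs10 window lies inside that span.
Rgs2 (chr1:144004150-144004399, minus strand): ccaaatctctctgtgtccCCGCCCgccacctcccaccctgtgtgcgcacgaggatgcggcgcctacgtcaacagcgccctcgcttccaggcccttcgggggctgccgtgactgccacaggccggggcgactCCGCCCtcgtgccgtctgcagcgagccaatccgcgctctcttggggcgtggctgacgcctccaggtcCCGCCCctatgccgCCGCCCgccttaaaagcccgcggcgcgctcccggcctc
Rgs10 (chr7:128418173-128418422, minus strand): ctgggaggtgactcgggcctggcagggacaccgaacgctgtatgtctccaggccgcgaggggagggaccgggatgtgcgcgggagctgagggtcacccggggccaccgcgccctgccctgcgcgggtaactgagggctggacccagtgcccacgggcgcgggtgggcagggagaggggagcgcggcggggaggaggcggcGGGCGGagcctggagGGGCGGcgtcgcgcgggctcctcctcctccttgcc
Both windows are rich in G and C, at 72.4% for Rgs2 and 76.4% for Rgs10. The Rgs2 window held 4 GC boxes, which begin 232, 119, 52 and 38 bases before the start, and the Rgs10 window held 2, at 50 and 35 bases. A GC box was present in 32.7% of all 32851 promoter windows of this length. The CCAAT box (CCAAT) was found in the Rgs2 window, 94 bases before the start and not overlapping a GC box, and in 33.8% of all windows. The E-box CANNTG, the core sequence bound by basic helix-loop-helix factors such as Lyl1, had no match in either window, while 66.2% of all windows held one. Of the 7 windows matched, 2 held an E-box, 1 of Rgs3 at 243 and 194 bases before the start and 1 of Rgs19 at 141 and 70 bases. Nor did either window hold the AP-1 sequence TGANTCA (6.75% of all windows), the cAMP response element TGACGTCA (1.55%) or the TATA box TATAAA (12.4%). Each motif was searched on both strands. No match says only that these letters are not in this window.

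Levels of different members were compared per kilobase of the longest coding transcript of each gene in GENCODE M21. On that scale Rgs10 was the most abundant member in every library, at 1156.6 to 2258 CPM per kb. Rgs2 followed at 483 to 648 CPM per kb and Rgs19 at 156 to 330, and neither range overlapped its neighbours above. Rgs1 spanned 3.282 to 182 CPM per kb, Rgs14 0 to 13.5 and Rgs3 0 to 3.90. The ranges of Rgs19 and Rgs1, of Rgs1 and Rgs14 and of Rgs14 and Rgs3 overlapped between libraries. Within each of the 6 libraries the members kept this order, except that Rgs14 and Rgs3 were both at 0 in knockout sample 2. In wild-type sample 1 both had 1 read, so transcript length alone set their order there. The order of the mean levels was the same with the union of all annotated exons as the length. Of the summed level per kb of the 7 members, Rgs10 made up 66.5% ± 2.75 in the wild-type group and 59.1% ± 4.44 in knockout (SD, n = 3 each), with 64.2% in the lowest wild-type and 64.0% in the highest knockout library. Rgs2 made up 22.1% ± 2.95 and 25.9% ± 1.90 of that sum. Each share depends on the levels of the other members. The higher Rgs2 share therefore does not show more Rgs2, whose mean was 596 CPM per kb in the wild-type group and 539 in knockout. The Rgs10 share reuses the Rgs10 values described below, so it is no support apart from them. How often such shares separate for other genes was not computed.

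**Figure D1:**
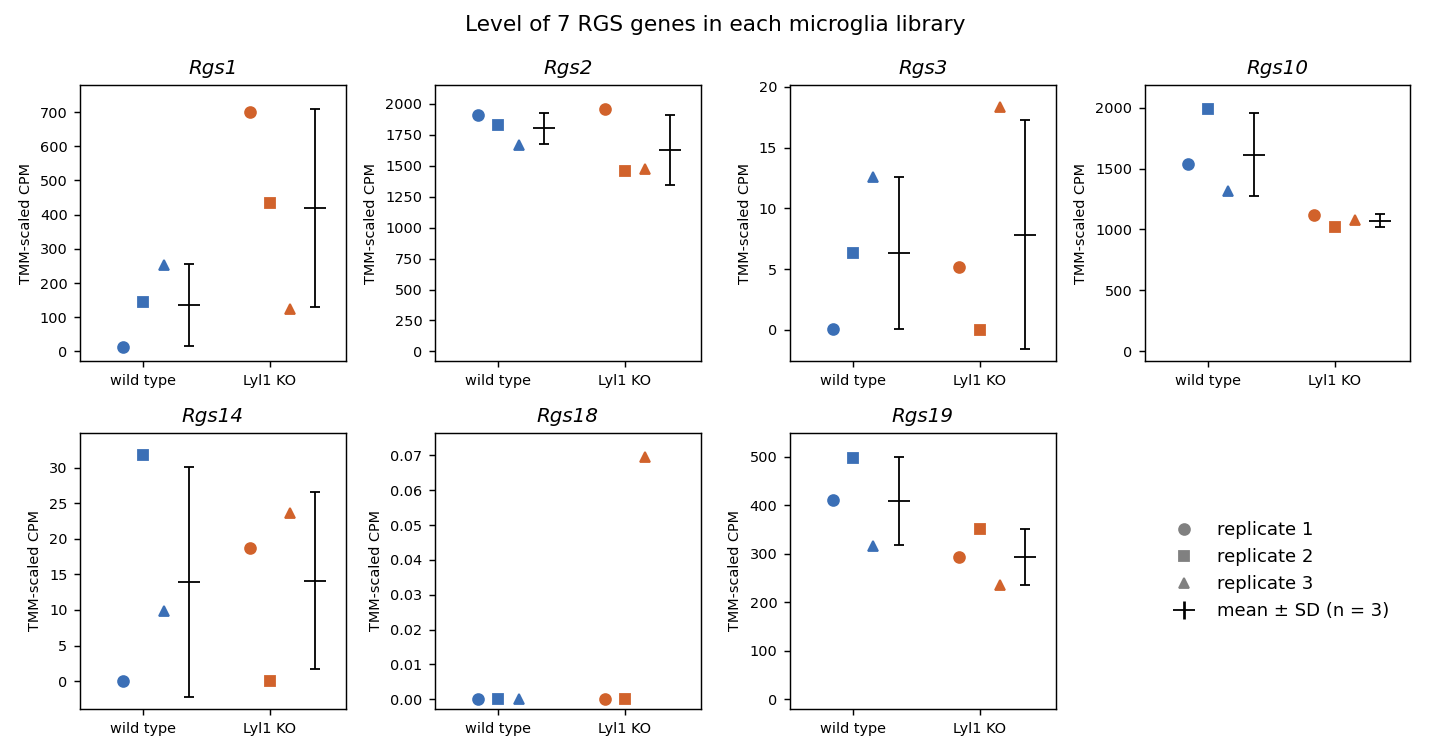
Level of each member in the 6 libraries, as TMM-scaled CPM (y axis, linear, a separate scale for each gene), for wild type (blue) and Lyl1 knockout (orange); symbols are replicate numbers and black bars are the mean ± SD, left out for Rgs18. The Rgs10 points of the knockout lie between 1018 and 1122 CPM, below all 3 wild-type points, while the other 6 genes overlap between genotypes.

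Genotype was tested by edgeR's quasi-likelihood test across 10394 genes, with Benjamini-Hochberg adjustment over all of them. It called 0 of the 6 tested members, against a background of 0% of all genes tested. DESeq2 and limma-voom also called 0 members, where they called 52 and 0 of the 10394 genes. Lyl1 itself was not called by edgeR either, at a log2 fold change of -2.14 ± 0.98 (standard error), an unadjusted p of 0.0609 and adjusted p = 0.9999. A count of 0 therefore does not show that the members were unchanged. At an unadjusted p under 0.05 there was 1 member, Rgs10, lower in knockout, where 1.67% of all tested genes were lower at that level. Of the 6 tested members 3 were higher and 3 lower in knockout, where 48.7% of all tested genes were higher, and their median log2 fold change of -0.06 stood beside -0.03 over all tested genes. The genotypes did not overlap for 1 of these 6 members, against 11.2% of all tested genes (5.97% with knockout above and 5.19% with knockout below).

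Rgs10 encodes a small RGS protein of microglia, macrophages and platelets that acts on G alpha subunits of the inhibitory class (ENSMUSG00000030844.11, GRCm38 chromosome 7, 128373621 to 128418758, minus strand). It was at 1534, 1987 and 1318 CPM in wild-type samples 1 to 3 and at 1122, 1018 and 1077 CPM in knockout samples 1 to 3. Every knockout library lay below every wild-type library, where 5.19% of all tested genes did so. The means were 1613 ± 341 CPM in the wild-type group and 1072 ± 52.3 CPM in knockout (SD, n = 3 each), 1.504-fold lower in knockout. The log2 fold change came to -0.59 ± 0.19 (standard error), at an unadjusted p of 0.0161 and adjusted p = 0.9999 in edgeR. An exact permutation test (2-sided) gave p = 0.1, which is the lowest value possible with 3 against 3 samples.

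The coefficient of variation of Rgs10 was 21.2% in the wild-type group and 4.88% in knockout, so most of its spread lay among wild-type libraries, with sample 2 the highest. Without wild-type sample 2 the log2 fold change was -0.39 (unadjusted p = 0.0697 in edgeR, n = 5 samples), and without knockout sample 2 it was -0.53 (unadjusted p = 0.0562 in edgeR). It was negative under all 15 alternatives, from -0.71 to -0.39. Knockout sample 2, the only knockout library with Xist as low as in wild type, had an Rgs10 level of 1018 CPM, the lowest of all 6. Xist differed between most knockout libraries and wild type, and its part in the Rgs10 difference was not tested. The gene model Gm15503 overlaps the span of Rgs10 on the same strand and had 1262 to 3311 reads, but it shares no annotated exon base with Rgs10. Among the microglia markers, Fcrls was lower in every knockout library than in any wild-type one, and P2ry12 was higher in every one. Of all tested genes 5.19% and 5.97% were so. Cx3cr1, Tmem119, Csf1r, Sall1 and Siglech overlapped between genotypes. In sorted bulk samples, fewer cells of a type and less RNA per cell cannot be told apart.

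Set against Rgs2 in the same library, a comparison chosen after the values were seen and independent of the scaling between libraries, the level of Rgs10 per kb was 2.76, 3.73 and 2.71 times that of Rgs2 in wild-type samples 1 to 3. The ratio was 1.97, 2.39 and 2.51 in knockout samples 1 to 3. All 3 knockout ratios were below the wild-type ratios, the nearest being 2.51 in knockout sample 3 and 2.71 in wild-type sample 3. The ratio reuses the Rgs10 values that already separated the genotypes, so it is no support apart from them. How often other genes separate when set against Rgs2 was not computed.

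Rgs2 encodes an RGS protein selective for the G alpha q class, which activates phospholipase C beta (ENSMUSG00000026360.9, chromosome 1, 143999338 to 144004161, minus strand). It was at 1909.7, 1828 and 1667 CPM in the wild-type group and at 1956, 1460.2 and 1469.7 CPM in knockout. It had the narrowest range of the members, with the highest library at 1.34 times the lowest, and the genotypes overlapped, since knockout sample 1 was the highest of all. Means were 1802 ± 123 and 1629 ± 284 CPM (SD, n = 3 each), and the log2 fold change came to -0.15 ± 0.17 (standard error), with adjusted p = 0.9999 in edgeR.

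Rgs19 encodes an RGS protein of the subfamily that binds membranes through a cysteine string and acts on inhibitory G alpha subunits (ENSMUSG00000002458.13, chromosome 2, 181688419 to 181693977, minus strand). Its levels were 412, 499 and 317 CPM in the wild-type group and 294, 351 and 236 CPM in knockout. Wild-type sample 3 lay below knockout sample 2, so the genotypes overlapped. The means were 409 ± 91.0 and 294 ± 57.4 CPM (SD, n = 3 each), and the log2 fold change came to -0.48 ± 0.28 (standard error), with an unadjusted p of 0.132 and adjusted p = 0.9999 in edgeR. The log2 fold change was negative under all 15 alternatives, from -0.62 to -0.28.

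Rgs1 encodes a small RGS protein that dampens chemokine receptor signalling in lymphocytes and whose transcript is induced on activation (ENSMUSG00000026358.13, chromosome 1, 144242296 to 144249242, minus strand). It was at 12.6, 146 and 252 CPM in wild-type samples 1 to 3 and at 701, 435 and 124 CPM in knockout samples 1 to 3. The knockout mean was set by samples 1 and 2, while knockout sample 3 lay below wild-type samples 2 and 3. Wild-type sample 1, the library with the fewest reads, was far below all others with 143 reads. The highest library was 55.59 times the lowest, the widest range among the members with reads in every library. The means were 137 ± 120 and 420 ± 289 CPM (SD, n = 3 each), 3.07-fold higher in knockout, but the genotypes overlapped. The log2 fold change came to 1.62 ± 0.98 (standard error), with an unadjusted p of 0.139 and adjusted p = 0.9999 in edgeR, and an exact permutation test (2-sided) gave p = 0.3.

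The log2 fold change of Rgs1 was 1.03 without knockout sample 1, 1.09 without wild-type sample 1 and 2.41 without wild-type sample 3. It was positive under all 15 alternatives. An unadjusted p under 0.05 was reached without a filter on low counts (0.0158 in edgeR) and with edgeR's newer dispersion handling (0.0394), at adjusted p = 0.651 and adjusted p = 0.719. In those fits 1663 of 22005 and 709 of 10394 genes reached it, against 295 of 10394 in the fit used elsewhere.

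The 2 libraries highest in Rgs1 also had the highest summed level of immediate-early genes. These are transcripts induced rapidly by stimuli in many cells, and also by tissue dissociation. The summed level of 23 such genes was 20255 and 16482 CPM in knockout samples 1 and 2, 9004 CPM in knockout sample 3 and 8647 to 10307 CPM in wild type. Of the 19 tested among them, 17 were higher and 2 lower in knockout (48.7% of all tested genes were higher), with 5 higher and 1 lower at an unadjusted p under 0.05 (background 1.16% and 1.67%) and 0 past the adjusted threshold in edgeR. Klf6, a zinc finger factor, was at 161 ± 51.2 and 460 ± 165 CPM (SD, n = 3 each), Junb at 1016 ± 168 and 1494 ± 192 CPM and Jun at 2044 ± 254 and 3449 ± 1302 CPM. Single genes did not all follow the sum. In knockout sample 3, Klf6 (279 CPM) and Junb (1280 CPM) were also above every wild-type library. For 4 of the 19 every knockout library lay above wild type, and for 1, Egr2, below (5.97% and 5.19% of all tested genes). Egr2 was at 57.7, 62.9 and 3.91 CPM in wild-type samples 1 to 3 and at 0.176, 0.356 and 3.79 CPM in knockout samples 1 to 3. Wild-type sample 1 was low in Rgs1 without being low in this list, at 10307 CPM.

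Erythroid transcripts followed the same 2 knockout libraries. The 5 genes of that list summed to 227 and 65.2 CPM in knockout samples 1 and 2, to 0.243 CPM in knockout sample 3 and to 0.159 to 1.23 CPM in wild type. Of 11 T, B and NK cell markers, Cd3e, Cd3g, Trbc2, Ncr1, Klrb1c and Nkg7 had 0 reads in all libraries, and the list's sum, 55.9 to 131 CPM in the wild-type group and 73.5 to 132 CPM in knockout, came almost wholly from Cd79b at 54.5 to 132 CPM. The part of the immediate-early and erythroid transcripts in the Rgs1 difference was not tested.

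**Figure D2:**
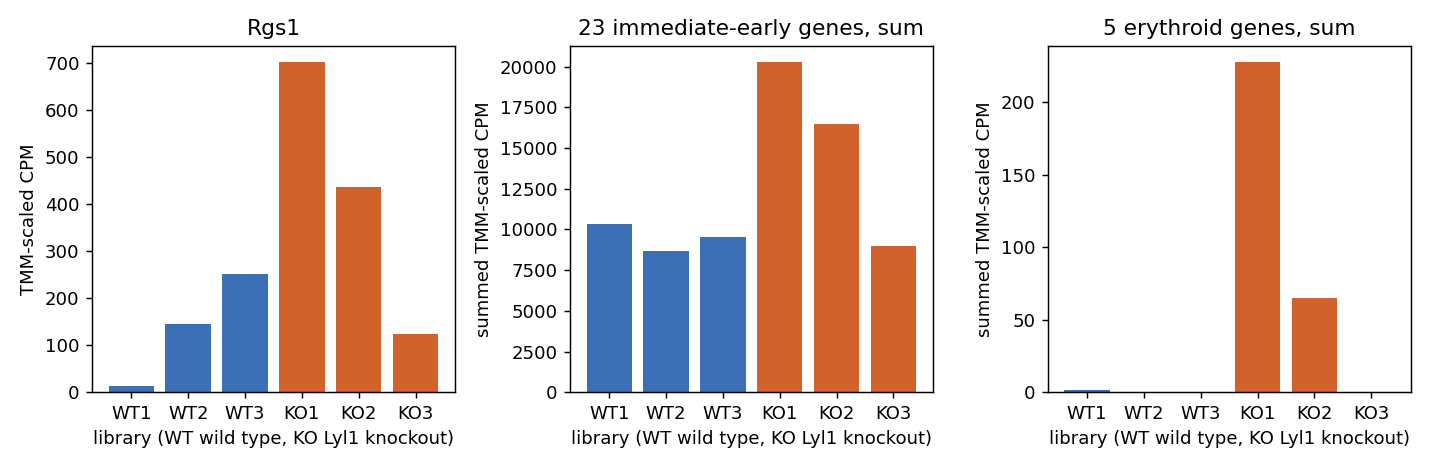
Bars give, for each library (x axis), the TMM-scaled CPM of Rgs1 (left), the summed CPM of 23 immediate-early genes (middle) and the summed CPM of 5 erythroid genes (right), with wild type in blue and Lyl1 knockout in orange. Knockout samples 1 and 2 have the tallest bars in all 3 panels, and knockout sample 3 lies within the wild-type range in each.

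Rgs3 and Rgs14 were present in some libraries and near 0 in others of the same genotype. Rgs3, an RGS protein with long and short isoforms (ENSMUSG00000059810.18, chromosome 4, 62559847 to 62704001, plus strand), had 1, 159 and 264 reads in the wild-type group and 118, 0 and 527 reads in knockout. Rgs14, a scaffold that joins an RGS domain to Ras-binding domains and a GoLoco motif (ENSMUSG00000052087.14, chromosome 13, 55369732 to 55384687, plus strand), had 1, 799 and 208 reads in the wild-type group and 425, 0 and 678 reads in knockout. Wild-type sample 1 and knockout sample 2 were the low libraries for both genes. The count of 0 in knockout sample 2 allows up to 0.152 CPM, while the other knockout libraries were at 5.20 and 18.3 CPM for Rgs3 and at 18.7 and 23.6 CPM for Rgs14.

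Mean levels in the wild-type group and knockout were 6.33 ± 6.25 and 7.84 ± 9.45 CPM for Rgs3 and 13.9 ± 16.2 and 14.1 ± 12.4 CPM for Rgs14 (SD, n = 3 each). Their log2 fold changes, 0.31 and 0.02, had standard errors of 2.40 each, so no direction can be read for either gene, and the sign of both turned under some alternatives. This on-and-off pattern was common at their level. Among the 3119 tested genes at 7.00 to 28.0 CPM, around the Rgs14 mean, 66.7% had 3 reads or fewer in at least 1 library, and 97 genes (3.11%) had so few in exactly wild-type sample 1 and knockout sample 2. Around the Rgs3 mean, at 3.54 to 14.2 CPM, these shares were 79.5% and 4.85% of 2061 genes.

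Rgs18, an RGS protein of platelets, megakaryocytes and myeloid cells (ENSMUSG00000026357.3, chromosome 1, 144752683 to 144775435, minus strand), had 2 reads in knockout sample 3 and 0 in the other 5 libraries. A count of 0 there allows up to 0.119 to 0.264 CPM, counting error only. The platelet markers Gp1bb, Gp6 and Tubb1 had 0 reads in all libraries and Ppbp had 1 read in 1 library. Of the 10 platelet and megakaryocyte markers, 5 had at most 3 reads in any library and 3 were tested. These were Gp9 at 52.7 to 176 CPM, Itgb3 at 6.74 to 113 CPM and Treml1 at 0.0882 to 14.8 CPM. Itga2b had 28 reads, all in knockout sample 3, the library with the 2 Rgs18 reads. Clec1b had 27 reads in wild-type sample 2 and 1 in knockout sample 2. The list summed to 81.0 to 199 CPM in the wild-type group and to 65.6 to 186 CPM in knockout.

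Rgs18 lies in a run of 5 RGS genes on chromosome 1 that spans 776.1 kb, in the order Rgs2, Rgs13, Rgs1, Rgs21 and Rgs18. Within that run the ends differed. Rgs2 had 21663 to 46023 reads per library, Rgs1 had 143 to 15916 reads, and Rgs13, Rgs21 and Rgs18 had at most 2 reads in any library. The 2 expressed neighbours did not move alike: Rgs1 per kb was 0.519%, 6.27% and 11.9% of Rgs2 in wild-type samples 1 to 3 and 28.2%, 23.4% and 6.63% in knockout samples 1 to 3.

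**Figure D3:**
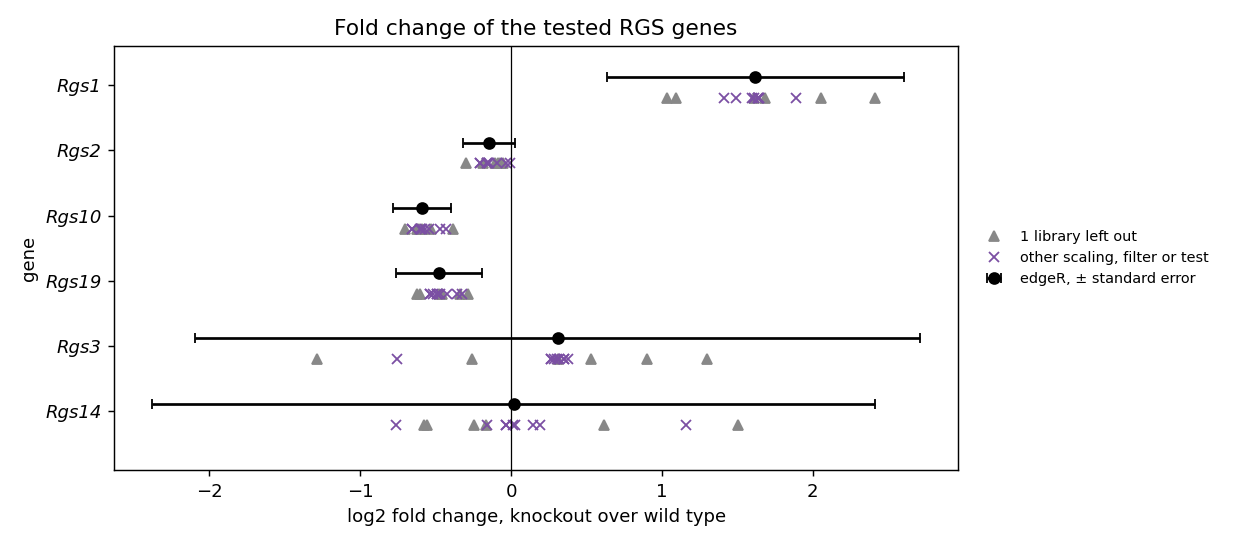
Log2 fold change of knockout over wild type (x axis) for the 6 tested members (y axis); black points with bars are the edgeR estimate ± standard error, triangles the fits without 1 library, crosses other scalings, filters or tests. Rgs10 and Rgs19 stay below 0 and Rgs1 above 0 in every fit shown, and Rgs3 and Rgs14 lie on both sides.

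Of 17 other RGS family genes and RGS-binding proteins, 1 passed the filter on low counts. This was Rgs7bp, a membrane anchor for the neuronal RGS subfamily of Rgs6, Rgs7, Rgs9 and Rgs11, with 285, 7 and 693 reads in the wild-type group and 713, 658 and 782 in knockout. Wild-type sample 2 alone was near 0, and the means were 19.5 ± 17.1 and 30.7 ± 3.18 CPM (SD, n = 3 each; adjusted p = 0.9999 in edgeR). Of its partners, Rgs6, Rgs7 and Rgs9 had at most 2 reads in any library. Rgs4, Rgs5, Rgs8, Rgs16 and Rgs9bp had 0 reads throughout. Rgs5, a defining transcript of pericytes, was at 0 together with the pericyte genes Kcnj8 and Higd1b.

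The partners of the RGS proteins were described from lists of the G protein cycle. None of the 68 tested genes in these 6 lists passed the adjusted threshold in edgeR, and 2 did so at an unadjusted p under 0.05, Ccr6 and Gnb2, where 2.84% of all tested genes did. The genotypes did not overlap for 1 G alpha gene, 1 G beta or gamma gene and 1 other regulator, each with knockout below. Among the receptors 2 lay above and 1 below, and among receptor kinases, arrestins and effectors there were 0. The share over all tested genes was 11.2%, so absence of overlap does not set the genes named below apart. Of 9 tested G alpha genes 5 were higher and 4 lower. Gnai2, the inhibitory alpha subunit on which Rgs10, Rgs19 and Rgs1 can act, had the highest CPM of them, at 1216 ± 268 CPM in the wild-type group and 807 ± 213 CPM in knockout (SD, n = 3 each), with no overlap between genotypes. Its log2 fold change came to -0.59 ± 0.27 (standard error) (unadjusted p = 0.0589, adjusted p = 0.9999 in edgeR), and it was -0.42 with upper-quartile scaling. Gna12, an alpha subunit that acts on RGS-domain exchange factors, was at 342 ± 72.4 and 464 ± 57.6 CPM, and Gnaq, the target of Rgs2, at 34.0 ± 32.0 and 73.8 ± 60.5 CPM, both with overlapping genotypes.

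Of 9 tested G beta and gamma genes 8 were lower and 1 higher in knockout, where 51.3% of all tested genes were lower, and the median of their log2 fold changes was -0.48. With upper-quartile scaling or library size alone the split was 7 to 2. Gnb2, a beta subunit, was at 261 ± 86.1 and 141 ± 32.2 CPM (SD, n = 3 each), with no overlap, a log2 fold change of -0.88 and an unadjusted p of 0.0462 in edgeR that rose to 0.177 without wild-type sample 2. Gng2, a gamma subunit, was at 210.02 ± 106 and 114 ± 34.7 CPM. For these genes the highest library was in wild type.

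Of 26 tested G protein-coupled receptor genes 15 were higher and 11 lower, with a median of 0.11, and with upper-quartile scaling or library size alone the split was 18 to 8. Ccr6, a chemokine receptor, was nearly unread in wild type (5, 2 and 0 reads) against 4757, 937 and 3232 reads in knockout (unadjusted p = 0.000512, adjusted p = 0.9999 in edgeR). Lpar6, a lysophosphatidic acid receptor, was at 332 ± 28.2 and 221 ± 61.4 CPM, and P2ry12, the ADP receptor, at 6729 ± 330 and 7825 ± 944 CPM (SD, n = 3 each), neither overlapping between genotypes. Receptor kinases and arrestins, which silence the receptor rather than the G protein, had 2 higher and 4 lower of 6 tested, with Arrb2 the highest in CPM at 366 ± 61.2 and 295 ± 65.2 CPM.

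Adenylyl cyclases and phospholipases C beta had 3 higher and 2 lower of 5 tested, led by Adcy7 at 172 ± 153 and 208 ± 71.3 CPM. Other regulators of G alpha subunits had 5 higher and 8 lower of 13 tested. Among them Gpsm3, a GoLoco protein of leukocytes that binds inhibitory alpha subunits, was at 71.7 ± 26.7 and 37.7 ± 12.98 CPM with no overlap (unadjusted p = 0.235 in edgeR), and Arhgef1, an RGS-domain guanine nucleotide exchange factor and the highest of them in CPM, was at 267 ± 35.4 and 266 ± 67.2 CPM (SD, n = 3 each).

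**Figure D4:**
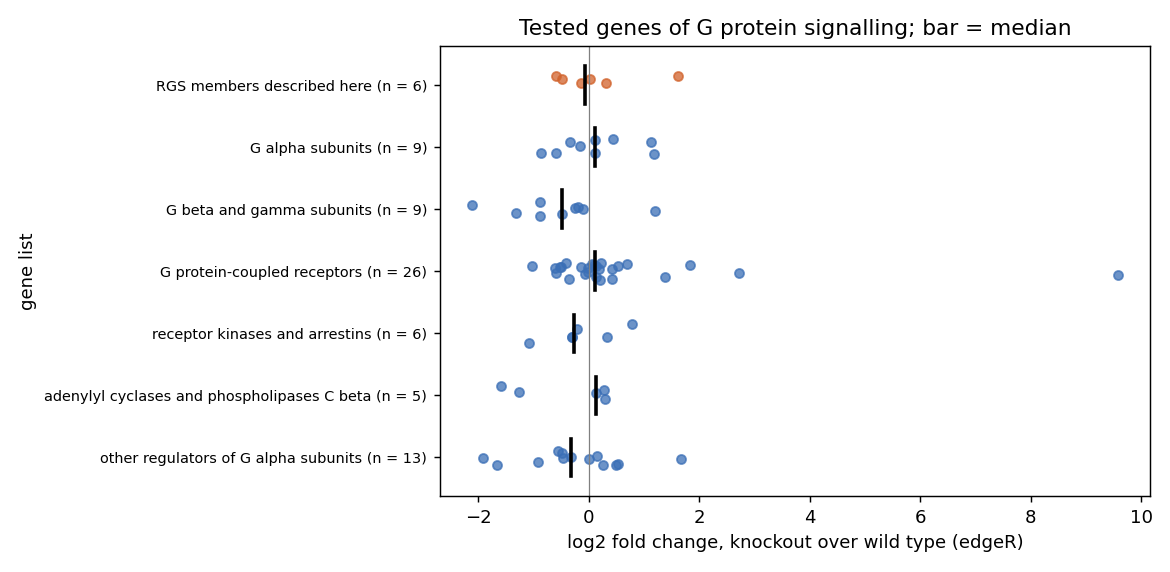
Log2 fold change of knockout over wild type (x axis) for every tested gene of 7 lists of G protein signalling (y axis), the RGS members in orange and the partners in blue, with the median of each list as a black bar. Medians lie between -0.48 for G beta and gamma subunits and 0.12 for adenylyl cyclases and phospholipases C beta, and the receptor at the far right is Ccr6.

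Genes with the profile most like each member were taken by the root mean square difference of log2(CPM + 1) over the 6 samples, each profile centred on its own mean, among genes averaging 20 CPM or more. Rgs10 was closest to Uqcrh (0.0744) and Mtfr1l (0.0781), and Rgs19 to Hcfc1r1 (0.102) and Nrbp1 (0.105). Rgs2 was closest to Thap11 (0.0934) and Eef1a1 (0.0998). For Rgs1 the nearest genes, Zfp800 (0.399) and Fdxr (0.402), were farther away, as were Sipa1l2 (0.449) and Smim15 (0.659) for Rgs3 and Wdyhv1 (0.420) and Zkscan5 (0.465) for Rgs14. The difference is not scaled by a gene's own spread, so it runs larger for members that vary more between libraries, and its size does not rank how close the matches are. These likenesses describe 6 libraries and were picked from 6338 or 6339 genes.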

How the data were processed

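The deposited values are raw read counts per gene symbol, not normalized, made by the authors for each of 6 samples. Per the submitters' processing notes the build was GRCm38 and the tools were featureCounts 1.5.1, Subread, STAR 2.5.2b, limma 3.28.21 and CASAVA 1.8.2, with no role or order given. An annotation or a strand setting is not given in the sources used here. Per the labels' protocols, cDNA was made with a SMARTer kit, which does not mark strand, and the protocols name no molecular identifiers, so counting limits cover counting error only.

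The 92 ERCC spike-in rows of 48679 were left out. The analysis ran in R 4.3.3 with edgeR 4.0.16. Its filterByExpr (minimum count 10, minimum total 15) kept 10394 genes, scaled by TMM. The genotypes were compared with the quasi-likelihood F test of edgeR (estimateDisp, glmQLFit in its older mode), 2-sided, with Benjamini-Hochberg adjustment over all tested genes and a threshold of 0.05. The standard error is the fold change over the square root of F. A count of 0 allows up to 3 reads. DESeq2 1.42.0, limma-voom (limma 3.58.1), other scalings and filters, a replicate block and leaving out each sample were alternatives. The fit was tested on simulated data, where, at a spread like that of these libraries, it called few of the changed genes.

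The members, gene lists and tests were chosen with earlier results of these data known. Named genes are the members, Lyl1, per list the 3 tested genes with the smallest p and at least 5 CPM and the most abundant, other RGS genes at 5 CPM or more, and for each member the 2 genes nearest in profile. Markers and RGS genes below 5 CPM are named for their counts, chosen after their values were seen. Egr2 is named because it went against its list. A gene of the microglia marker list is not reported here.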

Additional observations from a re-analysis of the deposited data

How the results depend on the processing

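Over 15 alternatives none of the 6 tested members passed the adjusted threshold, with adjusted p from 0.392 to 1. Rgs1, Rgs2, Rgs10 and Rgs19 kept their sign in all 15, while Rgs2 came to -0.01 with upper-quartile scaling. Rgs3 turned to -0.76 with limma-voom and ranged from -1.29 to 1.30 without 1 sample. Rgs14 turned to -0.037 with RLE scaling and with DESeq2, to -0.77 with limma-voom and to -0.16 with edgeR's newer dispersion handling, and ranged from -0.58 to 1.502 without 1 sample. Both genes have 1 read or none in 2 libraries, and the cause was not tested. The median of the members ran from -0.56 to 0.28. Rgs10 alone passed an unadjusted p of 0.05 in 11 alternatives, with Rgs1 in 2 more, and no member did without wild-type sample 2 or knockout sample 2. The count over all genes, 0 of 10394, became 8 of 22005 without a filter and 52 of 10394 with DESeq2, none of them a member. The genes at an unadjusted p under 0.05, 295 of 10394, became 1663 of 22005 without a filter and 1158 of 11061 without wild-type sample 3. Among the same 10394 genes they became 626 with DESeq2, 663 with limma-voom and 709 with the newer dispersions. The median log2 fold change of all genes, -0.03, moved to 0.09 with upper-quartile scaling, 0.20 with limma-voom, 0.18 with the replicate block and 0.10 without wild-type sample 2.

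The replicate numbers were not taken as pairs, since deviations of same-numbered samples correlated across 6523 genes with r of 0.00138, -0.0132 and -0.0403, and not every sample matched its own number best. With the replicate block 0 genes were called and 171 had an unadjusted p under 0.05; Rgs10 was at -0.57 (unadjusted p = 0.0338 in edgeR), Rgs1 at 1.89, Rgs19 at -0.47 and Rgs2 at -0.16. Rgs3 was at 0.38, Rgs14 at 1.16 and the median of the members at 0.11. Rgs18 was not tested, and without a filter its log2 fold change had an unadjusted p of 0.261 in edgeR.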

Other observations

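Some RGS genes outside the filter on low counts had reads in a single library, a pattern picked out after the values were seen. Rgs12, a large RGS protein related to Rgs14, had 411 reads in wild-type sample 2 and at most 7 in any other. Rgs11, a neuronal RGS protein, had 144 reads in knockout sample 3 and at most 1 in any other, and it shares 138 exon bases with Arhgdig on the opposite strand, which had 0 reads throughout.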
